A study of Mus musculus with 4 samples.

Results

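The genes of the proteasome were read in prefrontal cortex RNA of female mice that carry human synaptic acetylcholinesterase (AChE) in excess, set against female FVB/N mice. Members were the probe sets annotated with a single gene symbol beginning Psma, Psmb, Psmc, Psmd, Psme or Psmf. This gave 53 probe sets of 42 genes, out of 10833 probe sets with a single symbol and 12422 probe sets in all. Symbols with the Psmf prefix had no probe set with a single name. Psmc3ip and Psme3ip1 enter by their prefix alone: Psmc3ip is a meiotic recombination factor, and Psme3ip1 binds the nuclear activator Psme3 but is not a subunit. The transgenic group had 2 arrays and the control group had 2, each hybridised with total RNA pooled from 4 female mice. The transgenic mice overexpress the synaptic form of human AChE, the enzyme that hydrolyses acetylcholine, and the control mice are FVB/N without a stated transgene. The labels used here name neither the promoter of the transgene, nor the strain of the transgenic mice, nor the animals' age, nor whether both pools of a group hold different animals. Strain and transgene therefore cannot be told apart, and the p-values reflect array-to-array spread that may be technical.

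The proteasome is the barrel-shaped protease that degrades ubiquitin-tagged proteins. Its 20S core is built from outer rings of alpha subunits, which gate entry, and inner rings of beta subunits, some of which cut peptide bonds. A 19S cap binds ubiquitin, removes it and unfolds the substrate with a ring of ATPases, while alternative activators open the core without ubiquitin. Under interferon the catalytic beta subunits are exchanged for immunoproteasome forms that serve antigen presentation. In neurons the complex takes part in synaptic protein turnover, and subunit genes are known to be induced together by the transcription factor Nfe2l1 when proteasome activity falls.

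Promoters are shown for the subunit genes with a probe set that passed the test below (Psmd11, Psmc5 and Psmd5) and for Psmb5 and Psmb6, catalytic subunits whose promoters hold the core of the antioxidant response element, the element that Nfe2l1 binds together with small Maf proteins. Each line holds 250 bases before and 50 after the annotated start, from RefSeq on mouse GRCm38.p6, read 5′ to 3′ along the gene. Capitals mark the element's core, TGACNNNGC, searched on both strands.

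Psmd11, chr11:80428365-80428664, plus strand: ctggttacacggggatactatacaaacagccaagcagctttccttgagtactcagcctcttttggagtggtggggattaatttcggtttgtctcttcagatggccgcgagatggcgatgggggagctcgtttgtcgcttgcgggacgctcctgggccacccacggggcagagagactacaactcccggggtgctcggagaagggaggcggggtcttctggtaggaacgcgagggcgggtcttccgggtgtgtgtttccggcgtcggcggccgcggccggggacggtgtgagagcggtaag
Psmc5, chr11:106255935-106256234, plus strand: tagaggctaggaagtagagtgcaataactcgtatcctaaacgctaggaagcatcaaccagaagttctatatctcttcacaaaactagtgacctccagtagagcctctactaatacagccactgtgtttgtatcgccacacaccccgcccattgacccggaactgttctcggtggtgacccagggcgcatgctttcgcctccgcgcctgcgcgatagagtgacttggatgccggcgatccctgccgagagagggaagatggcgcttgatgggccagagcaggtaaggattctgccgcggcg
Psmd5, chr2:34870913-34871212, minus strand: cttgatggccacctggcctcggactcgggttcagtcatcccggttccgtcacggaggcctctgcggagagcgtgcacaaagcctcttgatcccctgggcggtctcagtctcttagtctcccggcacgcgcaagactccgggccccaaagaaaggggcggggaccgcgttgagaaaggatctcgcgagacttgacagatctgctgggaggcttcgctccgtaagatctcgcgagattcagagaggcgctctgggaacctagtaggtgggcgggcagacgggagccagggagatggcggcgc
Psmb5, chr14:54617946-54618245, minus strand: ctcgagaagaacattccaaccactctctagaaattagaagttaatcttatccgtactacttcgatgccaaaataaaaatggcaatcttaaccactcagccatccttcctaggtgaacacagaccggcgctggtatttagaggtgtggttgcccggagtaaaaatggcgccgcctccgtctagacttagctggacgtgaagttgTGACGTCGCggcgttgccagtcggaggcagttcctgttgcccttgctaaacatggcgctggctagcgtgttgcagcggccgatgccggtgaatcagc
Psmb6, chr11:70525107-70525406, plus strand: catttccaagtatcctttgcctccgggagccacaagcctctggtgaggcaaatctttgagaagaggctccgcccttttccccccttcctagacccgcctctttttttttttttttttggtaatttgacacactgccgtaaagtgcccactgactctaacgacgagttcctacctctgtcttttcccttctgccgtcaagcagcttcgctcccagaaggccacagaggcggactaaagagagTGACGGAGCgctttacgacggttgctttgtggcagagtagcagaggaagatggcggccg

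The match begins 47 bases before the start in Psmb5 and 9 bases before it in Psmb6, both on the gene's own strand. Promoters were matched for 36 of the 42 genes, and 6 of these 36 genes (16.7%) held the core: Psmb5, Psmb6, Psmc6, Psmd9, Psmd12 and Psme4. Over all 27025 genes with such promoters, 14% held it. The windows of Psmd11, Psmc5 and Psmd5 do not contain these letters, which says nothing about binding by the factor. CCAAT, the letters of the NF-Y box, stood in the promoters of 15 of the 36 genes (41.7%) and of 41.1% of all genes.

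The arrays were alike in overall signal, with median intensities of 87.45 and 88.2 in the transgenic pools and 87.4 and 86.6 in the control pools. The mouse Ache probe set read 365.3 and 355.6 in the transgenic pools and 599.5 and 621.9 in the control pools, and it does not show the human transgene. Xist, the RNA that coats an inactivated X chromosome, read 178.5 and 228 in the transgenic pools but 29.3 and 21.1 in the control pools, just over the floor of 19.675 to which lower values were raised. The labelled female sex of the control pools was therefore not visible in Xist. Y-linked probe sets read at most 28 on any array. Both blood markers on the array, Hba-a1 and Alas2, rose (limma), with summed intensities of 8472.8 and 6945.1 in the transgenic pools and 2779.4 and 2396.4 in the control pools. Each sum, here and below, adds the intensities of the brightest probe set of each gene, so bright genes weigh most. Levels of different probe sets are not comparable, so a sum does not measure cell content. Of 5 endothelial probe sets tested, 2 rose, both of Flt1. Those of Cldn5 (log2 change 0.56 ± 0.17), Cdh5 (0.17 ± 0.34) and Pecam1 (-0.18 ± 0.29) did not pass. Those of Tek and Kdr were too dim to test. The summed level of the 6 endothelial genes was 938.9 and 850.6 in the transgenic pools against 650.3 and 670.4 in the control pools. The 7 neuronal genes summed to 10794.7 and 12698 in the transgenic pools and 13637.3 and 13421.6 in the control pools, and none was at the floor on all arrays. Of their 7 tested probe sets 2 fell (Snap25 and Camk2a) and 5 did not pass, among them Gad1 with a log2 change of 0.33 ± 0.11 and Nefl with 0.28 ± 0.31. Of 7 astrocyte probe sets 2 rose, both of Aqp4 (4.29-fold and 12.9-fold), and 1 fell, that of S100b. The astrocyte sums were 4670.4 and 4834.4 in the transgenic pools and 5159.5 and 5198.8 in the control pools. Most of each was Aldoc, at 3257.5 and 3283 in the transgenic pools and 3797.3 and 3860.6 in the control pools. Of 9 oligodendrocyte probe sets 1 fell, for Mobp at 99047_at. The other Mobp probe sets did not pass, with log2 changes of -0.85 (99048_g_at), -0.65 (99046_at) and 0.06 (100536_at, the brightest). The oligodendrocyte sums were 2860.3 and 3215.5 in the transgenic pools and 3161.7 and 3809.4 in the control pools, with Cnp at the floor. Of 3 olfactory bulb probe sets 2 rose, those of Eomes (2.99-fold) and Th (1.57-fold), with sums of 858 and 772.7 in the transgenic pools and 690.3 and 435.5 in the control pools. None of 3 striatal probe sets passed in limma or had an unadjusted p under 0.05, and no choroid plexus probe set was bright enough to test. Both Aqp4 probe sets, Eomes at 103532_at and Flt1 at 98453_at read under the intensity filter of 49.4, set out below, in both control pools. They were tested only because the transgenic pools raised their means, so these calls rest on the difference itself. The part of cell content or dissection in the values below was not tested. In tissue RNA of this kind, fewer cells of a type and less RNA per cell cannot be told apart.

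Of the proteasome probe sets 3 passed the test between transgenic and control cortex, a share not far from that of all tested probe sets. Of the 53 probe sets, 44 (38 genes) lay above the intensity filter and were tested with limma, with Benjamini-Hochberg adjustment over all 7453 tested probe sets. Among them 2 rose, 1 fell and 41 did not pass at an adjusted p of 0.05, whereas 5.46% of all tested probe sets rose and 4.56% fell. The 3 that passed are 6.82% of the tested members, against a background of 10.0%. At an unadjusted p under 0.05 there were 11 members (25%), against 24.3% of all tested probe sets. Members were tested only if bright enough on average, so these counts do not speak for the 9 dim probe sets, which are described separately. Psmd11 at 160305_at, 1 of the 2 that rose, reached the filter intensity of 49.4 only through its transgenic values, so its entry into the test and into these counts rests on the difference itself.

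The sizes of the changes were small apart from a few members. The log2 change, transgenic minus control, lay within 0.5 of 0 for 41 of the 44 members (93.2%), against 81% of all tested probe sets. The median log2 change was 0.05 over the members and -0.03 over all tested probe sets, and 29 members (65.9%) lay above 0, against 45.8% overall. Members were also brighter than the average probe set, with a median intensity of 758 against 236.8, and their changes were more precise, with a median SE of 0.143 against 0.188. Groups did not overlap for 15 members that were higher and 10 that were lower in the transgenic pools, together 56.8% of the tested members, against 23.8% higher and 29.9% lower, together 53.7%, of all tested probe sets. Between pools of the same group the median absolute log2 difference of the members was 0.11 (transgenic) and 0.13 (control), and between pools of different groups it was 0.17 to 0.22. Over all tested probe sets the same values were 0.20 and 0.17 within the groups and 0.26 to 0.30 between them, so both showed larger differences between groups than within.

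**Figure D1:**
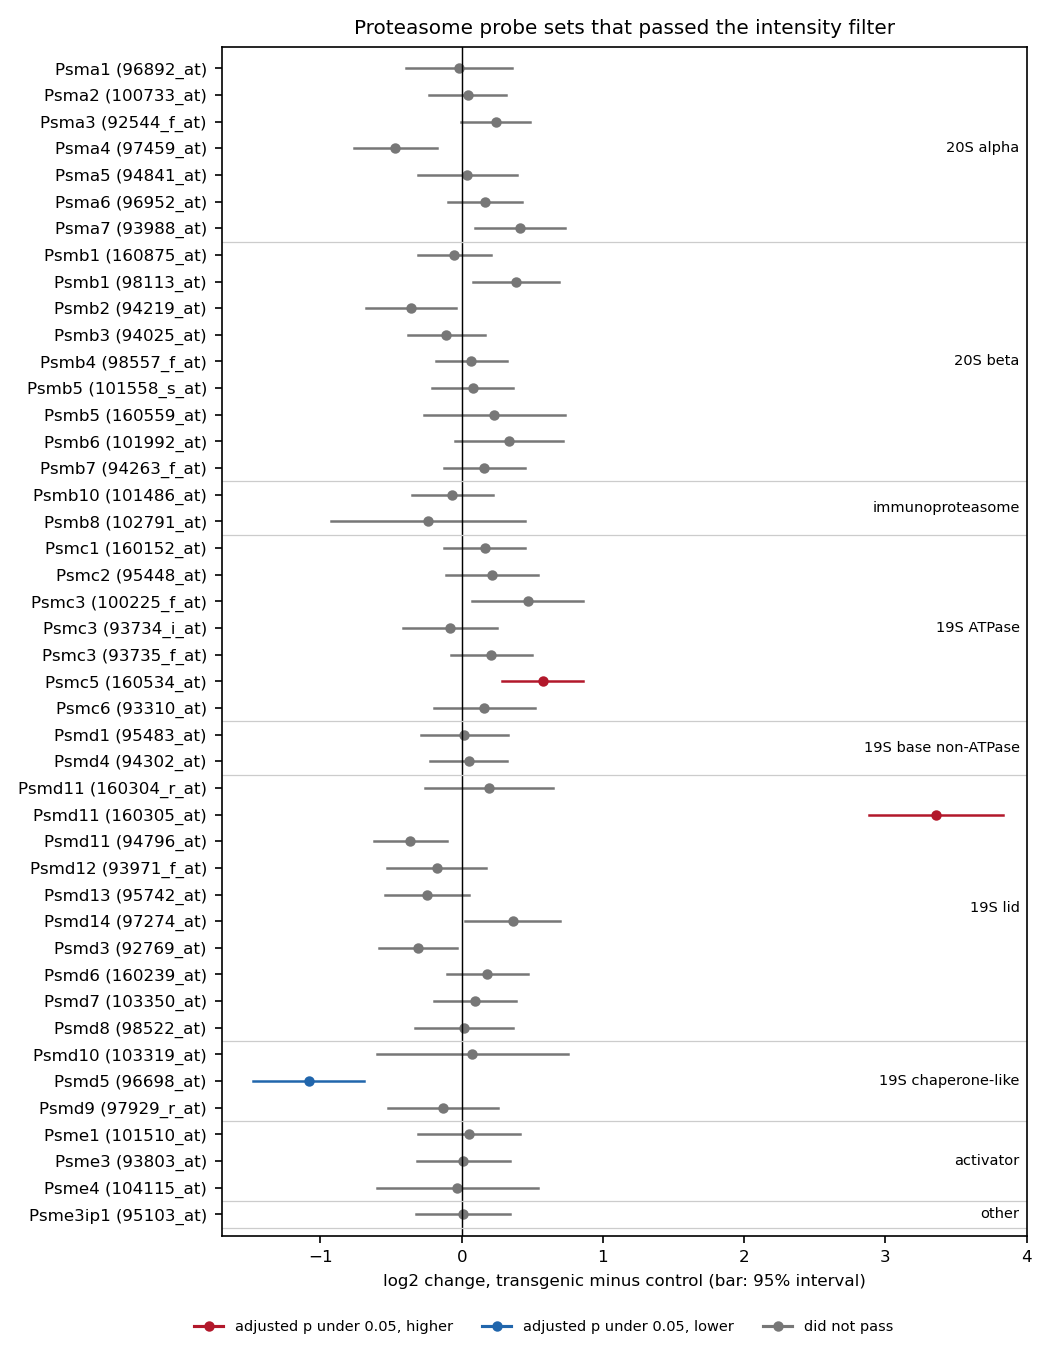
Log2 change (transgenic minus control, x axis) of each of the 44 tested proteasome probe sets (rows, grouped by role), with bars for the 95% interval from limma. The red points to the right are Psmd11 at 160305_at (3.36) and Psmc5 (0.57), the blue point to the left is Psmd5 (-1.08), and the grey points did not pass.

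**Figure D2:**
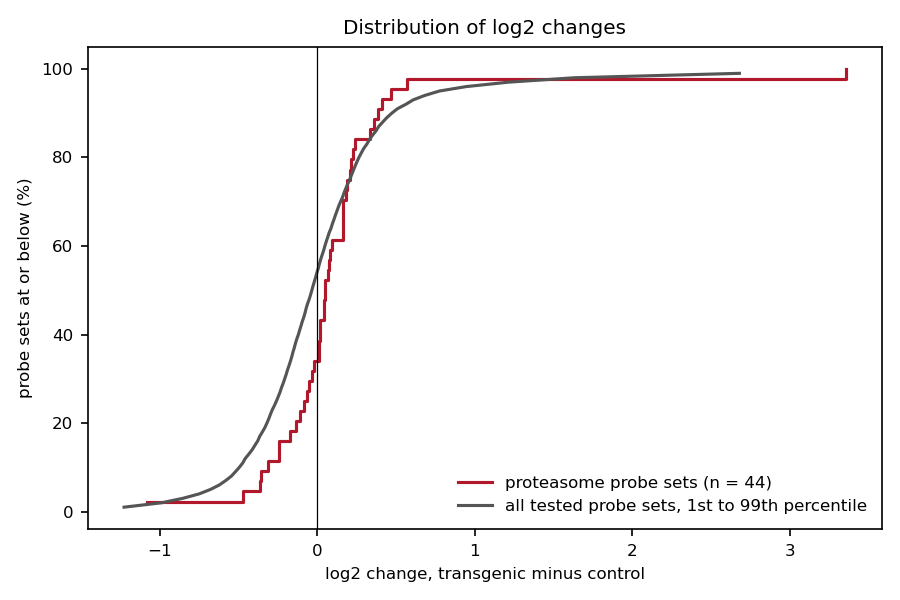
Cumulative share of probe sets (y axis, %) at or below each log2 change (x axis, transgenic minus control) for the 44 tested proteasome probe sets (red) and for all tested probe sets (grey). The red curve is steeper around 0, where 93.2% of members lie within 0.5 against 81% of all tested probe sets, and its last step is Psmd11 at 160305_at.

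The alpha subunits form the outer rings of the core. None of their 7 probe sets, 1 per gene, passed in limma, 2 had an unadjusted p under 0.05, and their median log2 change was 0.04, ranging from -0.47 to 0.41. Psma4 came closest. It read 815.5 and 709 in the transgenic pools and 1060.5 and 1047.1 in the control pools, and every transgenic pool lay below every control pool. Its log2 change was -0.47 ± 0.13 (SE; 95% interval -0.76 to -0.18, adjusted p = 0.0516), and the adjusted p ranged from 0.0442 to 0.212 over 13 alternative settings, passing in 4.

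Psma7 leaned the other way, with 879.3 and 891.7 in the transgenic pools and 599.2 and 738.3 in the control pools. The groups did not overlap, but the control pools differed more from each other than the transgenic pools did, and the log2 change was 0.41 ± 0.14 (adjusted p = 0.108). Psma3 read 2239.7 and 2150.3 in the transgenic pools and 1818 and 1900.1 in the control pools (log2 change 0.24 ± 0.11, adjusted p = 0.217). Its probe set ends in _f_at, which in Affymetrix naming marks probes shared within a sequence family, so part of the signal may come from related sequences. Psma6, at 1648.7 and 1711.8 in the transgenic pools and 1429.7 and 1568.1 in the control pools, had a log2 change of 0.17 ± 0.12. The groups overlapped for the remaining alpha subunits Psma1, Psma2 and Psma5, whose log2 changes were -0.02, 0.04 and 0.04.

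The constitutive beta subunits were read by 12 probe sets, of which 9 were tested. None passed in limma, 2 had an unadjusted p under 0.05, and the median log2 change was 0.08, ranging from -0.36 to 0.39. The catalytic subunits Psmb5, Psmb6 and Psmb7, which carry the chymotrypsin-like, caspase-like and trypsin-like activities, had no call. Psmb6 read 810.7 and 846.4 in the transgenic pools and 777.3 and 553 in the control pools, so its log2 change of 0.34 ± 0.17 (adjusted p = 0.266) leans on the second control pool: without the first control pool it was 0.58 (adjusted p = 0.0415), and without the second it was 0.09 (0.854). Psmb7 read 961.4 and 991.2 in the transgenic pools and 821.8 and 927.6 in the control pools (log2 change 0.16 ± 0.13, adjusted p = 0.498), also at an _f_at probe set.

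Psmb5 had a pair of tested probe sets. At 101558_s_at it read 1373.9 and 1643.2 in the transgenic pools and 1448.6 and 1396.1 in the control pools (log2 change 0.08 ± 0.13). At 160559_at it read 161.8 and 154.2 in the transgenic pools and 159.2 and 113.9 in the control pools (log2 change 0.23 ± 0.22). The groups overlapped at both.

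The structural beta subunits differed in direction, none past the threshold. Psmb2 read 659.2 and 593.9 in the transgenic pools and 871.7 and 739.2 in the control pools, a log2 change of -0.36 ± 0.14 (adjusted p = 0.157). Psmb1 read 850.8 and 889.8 in the transgenic pools and 617.5 and 716.9 in the control pools at 98113_at (log2 change 0.39 ± 0.14, adjusted p = 0.112). Its brighter probe set 160875_at gave 1925.1 and 1815.8 in the transgenic pools and 1853 and 2027.1 in the control pools, where the groups overlapped (log2 change -0.05 ± 0.11). Psmb4 at 98557_f_at and Psmb3 had log2 changes of 0.07 ± 0.11 and -0.11 ± 0.12, with overlapping groups.

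Immunoproteasome subunits replace the catalytic beta subunits in immune cells and under interferon. Psmb10 read 728.1 and 697.3 in the transgenic pools and 749 and 744.1 in the control pools, a log2 change of -0.07 ± 0.13 (95% interval -0.35 to 0.22, adjusted p = 0.801). Psmb8 was dim, at 51.7 and 56.4 in the transgenic pools and 62 and 65.7 in the control pools, and its log2 change of -0.24 ± 0.31 had a wide interval, -0.93 to 0.45 (adjusted p = 0.693). Psmb9 was not tested, at 14.2 and 20.1 in the transgenic pools and 11 and 11.5 in the control pools, with a single value above the floor.

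Neither tested immunoproteasome subunit passed in limma, and neither had an unadjusted p under 0.05. Both were lower without overlap of the groups, as were 29.9% of all tested probe sets. For microglial markers, the 8 genes of that list added up to 2856 and 2683.8 in the transgenic pools and 3163.5 and 3347.4 in the control pools, and of its 9 tested probe sets 1 fell, that of Tyrobp. The 4 leukocyte genes on the array summed to 83.8 and 50.8 in the transgenic pools and 128.1 and 65.7 in the control pools, with Cd3e, Cd3d and Ptprc at the floor on all 4 arrays. The part of these cells in the immunoproteasome values was not tested.

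The proteasome activators had log2 changes close to 0, within their error. Psme1, a subunit of the interferon-inducible 11S ring, read 254.1 and 269 in the transgenic pools and 256.6 and 248.1 in the control pools at 101510_at (log2 change 0.05 ± 0.16, 95% interval -0.31 to 0.41). Psme3, the nuclear relative that forms its own ring, read 653.3 and 536.5 in the transgenic pools and 592 and 582.6 in the control pools (log2 change 0.01 ± 0.15, -0.32 to 0.34). Psme4, a large single-chain activator, read 111.4 and 149.4 in the transgenic pools and 109.6 and 158.4 in the control pools (log2 change -0.03 ± 0.25, -0.60 to 0.54). The groups overlapped for all 3 genes, none passed in limma and none had an unadjusted p under 0.05. The partner of Psme1, Psme2, shares its probe set 100588_at with a second symbol and so is no member. That probe set read 216.4 and 236.1 in the transgenic pools and 208.9 and 207.7 in the control pools and did not pass (log2 change 0.12 ± 0.17). Psme3ip1, which binds Psme3, read 373.9 and 364.4 in the transgenic pools and 377 and 356.3 in the control pools (log2 change 0.01 ± 0.15).

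The 19S ATPases unfold the substrate and open the gate of the core. Their 7 tested probe sets came from 5 genes, several of them from Psmc3. Of the 7, 6 had log2 changes above 0, with a median of 0.21, against 45.8% of all tested probe sets above 0. Of the 7, 1 passed, against 10.0% of all tested probe sets. Psmc5 read 1101.4 and 1213.6 in the transgenic pools and 800.1 and 755.1 in the control pools, or 1158 ± 79.3 against 778 ± 31.8 (SD, n = 2 pools each). Both transgenic pools lay above both control pools. It rose 1.49-fold (log2 change 0.57 ± 0.13, 95% interval 0.29 to 0.86, limma adjusted p = 0.0199). The call did not hold in 5 of 13 alternative settings, over which the adjusted p ranged from 0.0178 to 0.147: it was 0.0559 without transgenic replicate 1, 0.116 without transgenic replicate 2 and 0.0586 without control replicate 2.

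Among the other ATPases, Psmc3 was read by 3 probe sets. At 100225_f_at it read 251.1 and 254.2 in the transgenic pools and 169.2 and 197.5 in the control pools (log2 change 0.47 ± 0.18, adjusted p = 0.134). At 93735_f_at it read 844.5 and 881.4 in the transgenic pools and 714.1 and 779.2 in the control pools (log2 change 0.21 ± 0.13, adjusted p = 0.366). The third, 93734_i_at, lies on the same accession as 93735_f_at and gave overlapping groups, at 379.7 and 434.2 in the transgenic pools and 428.1 and 431.3 in the control pools (log2 change -0.08 ± 0.15). Psmc1 and Psmc2 were higher in each transgenic pool than in each control pool, with log2 changes of 0.16 ± 0.13 and 0.22 ± 0.14 that did not pass. Psmc6 read 1478.5 and 1984 in the transgenic pools and 1395.7 and 1681.5 in the control pools, so its pools differed more within each group than the group means did (log2 change 0.16 ± 0.16).

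The lid of the 19S cap holds the deubiquitinase Psmd14 and a horseshoe of scaffold subunits. It gave the largest change among the members. Psmd11, a scaffold subunit whose raised level is known to increase assembled proteasome in human embryonic stem cells, read 385.9 and 447.9 in the transgenic pools and 42.9 and 38.4 in the control pools at probe set 160305_at, or 417 ± 43.8 against 40.6 ± 3.18 (SD, n = 2 pools each). It rose 10.2-fold there (log2 change 3.36 ± 0.21, 95% interval 2.88 to 3.83, limma adjusted p = 7.16e-06). Both control values lay under the filter intensity of 49.4, so the probe set was tested only because the transgenic pools raised its mean. Over 12 alternative settings its log2 change ranged from 2.93 to 3.46, and the call was lost in 1, without the filter on dim probe sets (adjusted p = 0.0592).

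The other probe sets of Psmd11 did not pass. At 94796_at, the brightest, the gene read 1337.6 and 1333.2 in the transgenic pools and 1785.4 and 1651.8 in the control pools, both transgenic pools below both control pools (log2 change -0.36 ± 0.12, adjusted p = 0.0818). At 160304_r_at it read 204.2 and 182.9 in the transgenic pools and 193.9 and 147.9 in the control pools, with overlapping groups (log2 change 0.19 ± 0.20, adjusted p = 0.625). The 3 probe sets were designed on different accessions, AW121693, AA710643 and AA414947. The sequences of the probes were not used here, so which part of the transcript each reads, and whether 160305_at reads another transcript as well, was not tested.

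The remaining lid subunits split around 0 and none passed. Psmd14 read 601.5 and 692.4 in the transgenic pools and 465.6 and 541.8 in the control pools (log2 change 0.36 ± 0.15, adjusted p = 0.171), and Psmd3 read 883.5 and 816 in the transgenic pools and 1036.4 and 1068.2 in the control pools (log2 change -0.31 ± 0.12, adjusted p = 0.161). Both had groups that did not overlap, as did Psmd13, Psmd12 and Psmd6. Of the 10 lid probe sets 3 were higher and 4 lower without overlap, against 23.8% and 29.9% of all tested probe sets. Psmd13, at 573.8 and 541.8 in the transgenic pools and 646.7 and 675.5 in the control pools, and Psmd12 at an _f_at probe set had log2 changes of -0.25 ± 0.13 and -0.17 ± 0.16. Psmd6, Psmd7 and Psmd8 had 0.18 ± 0.13, 0.09 ± 0.13 and 0.02 ± 0.15. Over all 10 lid probe sets the median log2 change was 0.05. Of the 10, 4 had an unadjusted p under 0.05 in limma, against 24.3% of all tested probe sets. They were those of Psmd3, Psmd14, and Psmd11 at 160305_at and 94796_at. The Psmd11 probe sets changed in opposite directions, and 160305_at was tested only through its transgenic values.

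**Figure D3:**
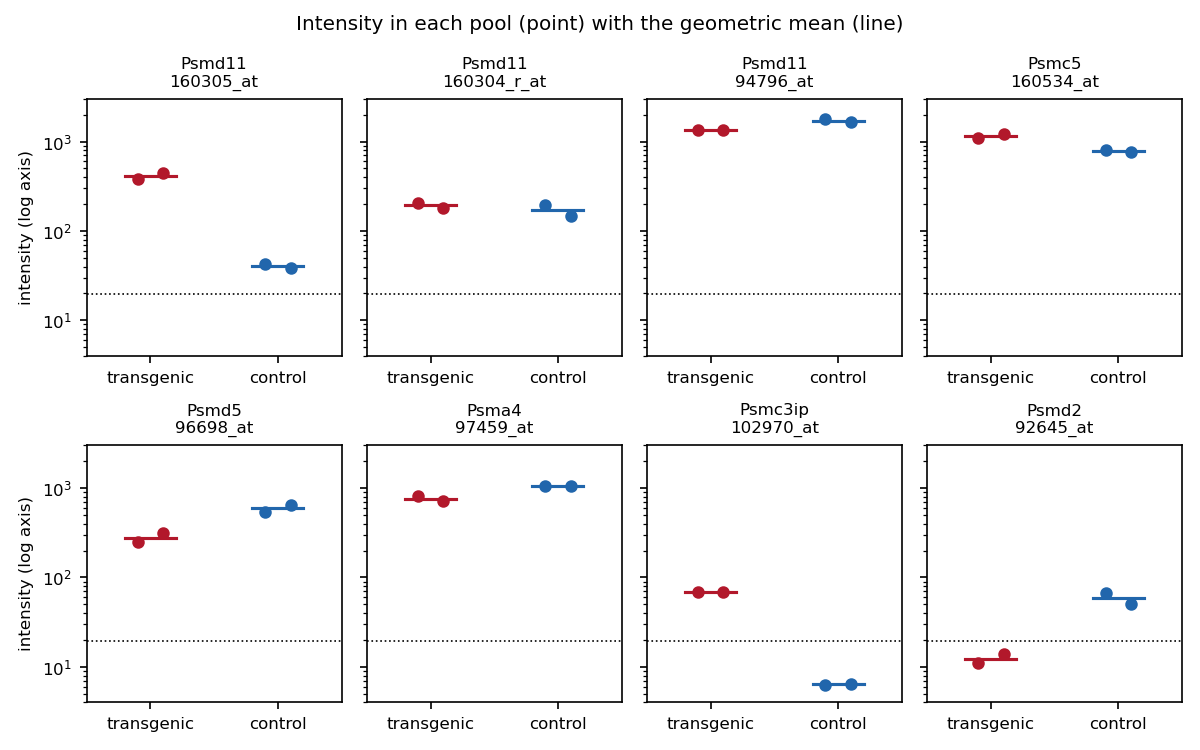
Intensity (log axis) in each transgenic pool (red points, left) and control pool (blue points, right) for 8 probe sets, with lines at the geometric mean of a group and a dotted line at the floor of 19.675. The transgenic pools stand far above the control pools for Psmd11 at 160305_at but not at its other 2 probe sets, and Psmd2 in transgenic pools and Psmc3ip in control pools lie under the floor.

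The base of the cap also holds non-ATPase subunits. Psmd4, a ubiquitin receptor, read 1018.3 and 1025 in the transgenic pools and 1010 and 965.6 in the control pools (log2 change 0.05 ± 0.12), and Psmd1, a large scaffold, read 1106.4 and 916.6 in the transgenic pools and 1025 and 964.8 in the control pools (log2 change 0.02 ± 0.14). Neither passed. The other large scaffold, Psmd2, was dim and not tested. It read 10.9 and 14.1 in the transgenic pools, both under the floor, and 67.8 and 51 in the control pools, which is at least 2.99-fold lower in the transgenic pools when the floor stands for their values. With the intensity filter dropped its adjusted p was 0.129.

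Psmd5, Psmd9 and Psmd10 are chaperone-like proteins that escort the ATPase ring during assembly and leave before the cap is complete. Psmd5, which also keeps the cap from joining the core, read 247.4 and 315.9 in the transgenic pools and 538.5 and 651.9 in the control pools, or 282 ± 48.4 against 595 ± 80.2 (SD, n = 2 pools each). Every transgenic pool lay below every control pool. It fell by 1.08 ± 0.18 on the log2 scale (95% interval -1.48 to -0.69, limma adjusted p = 0.00392). The call held in 12 of 13 alternative settings, with an adjusted p between 7.01e-06 and 0.2, the highest being without the filter on dim probe sets. Psmd9 read 182.7 and 195.9 in the transgenic pools and 206.1 and 208.5 in the control pools (log2 change -0.13 ± 0.17). Psmd10, also known as gankyrin, read 65.8 and 88.8 in the transgenic pools and 84.6 and 62.3 in the control pools, with overlapping groups (log2 change 0.07 ± 0.30).

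In all, 9 members were too dim to test, among them extra probe sets of Psmb1, Psmb4, Psmc5 and Psme1 whose genes had a bright probe set. Psmb1 at 161923_at read 27.6 and 19 in the transgenic pools and 32 and 15.6 in the control pools. Psmc5 at 161921_f_at read 32.6 and 17.2 in the transgenic pools and 18 and 23.8 in the control pools, so it does not bear on the rise at the bright probe set. Psmb4 read 13.6 and 32.4 in the transgenic pools and 14.3 and 12 in the control pools at 98556_at, and at most 9 on any array at 98558_r_at. Psme1 at 161293_r_at read at most 7.3 on any array. Genes without any tested probe set were Psmb9, Psmd2, Psmc4 and Psmc3ip. Psmc4, an ATPase, read 21.9 and 25.1 in the transgenic pools and 37.8 and 29.2 in the control pools, so both transgenic pools were lower, near the floor.

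Psmc3ip, which acts in meiotic chromosome pairing, differed most among the dim members. It read 69.5 and 68.2 in the transgenic pools and 6.3 and 6.4 in the control pools, both under the floor, and was at least 3.50-fold higher in the transgenic pools when the floor stands for the control values. With the intensity filter dropped it was the single member that passed (limma adjusted p = 0.0383), in a fit where both control values sit at the floor and so show no spread.

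Probe sets of the same gene were then compared within each pool, by testing whether their log2 difference changed between groups. The levels of different probe sets are not comparable, so only their changes were compared. The part of probe behaviour in a difference between changes was not tested. Of 1213 such pairs on the array 139 passed (11.5%, limma with Benjamini-Hochberg adjustment over the pairs). Among the 8 pairs of proteasome probe sets, from 4 genes, 2 passed, both involving Psmd11 at 160305_at. That probe set was above the filter only through its transgenic values, so both calls depend on the difference that let it be tested, and with the filter at the 60th percentile neither pair could be tested.

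The change at 160305_at exceeded that at 94796_at by 3.72 ± 0.23 on the log2 scale (95% interval 3.20 to 4.24, adjusted p = 2.16e-06). The change at 160304_r_at was lower than that at 160305_at, with a difference of -3.17 ± 0.29 (95% interval -3.82 to -2.51, adjusted p = 3.31e-05). The pair that leaves out 160305_at differed by 0.55 ± 0.23 and did not pass (limma unadjusted p = 0.0391, adjusted p = 0.179). The 2 Psmb1 probe sets differed by -0.44 ± 0.18 (160875_at minus 98113_at, 95% interval -0.85 to -0.03, limma unadjusted p = 0.0387, adjusted p = 0.179). The 2 Psmb5 probe sets differed by -0.15 ± 0.26. For Psmc3 the 3 differences lay between -0.29 and 0.55 and none passed. Intervals for the pairs that did not pass reach 1.11 in size for Psmc3 and 0.85 for Psmb1. With 2 pools a group, differences up to these sizes therefore lie within the intervals.

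**Figure D4:**
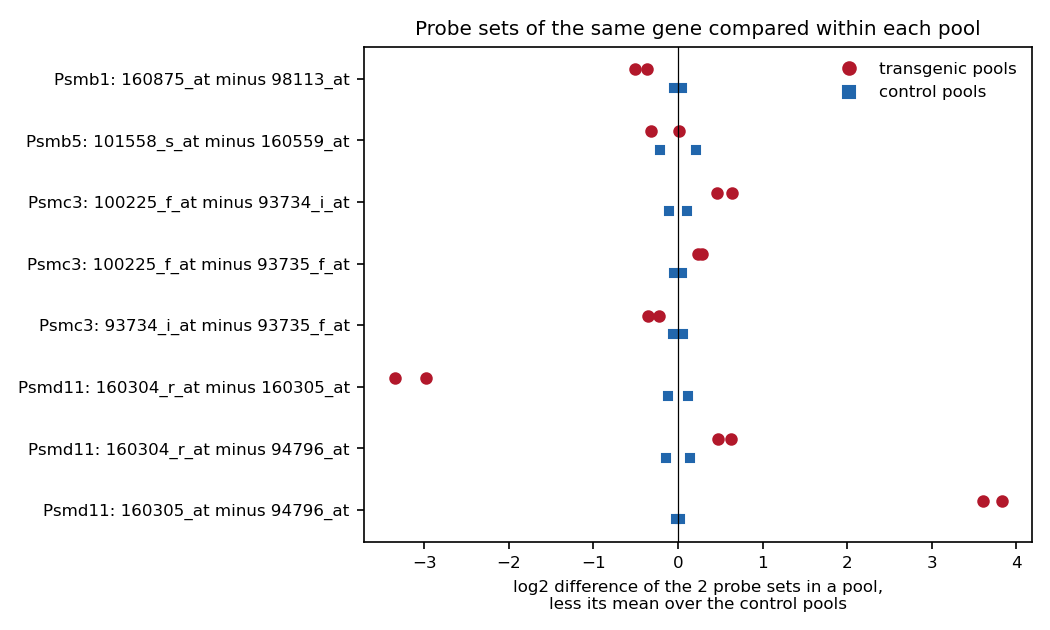
Log2 difference between 2 probe sets of a gene in each transgenic pool (red circles) and control pool (blue squares), less the mean of the control pools (x axis), for the 8 pairs of tested proteasome probe sets (rows). The transgenic pools stand far from the control pools in both pairs that include 160305_at of Psmd11, whose changes differ by 3.72 and -3.17. They lie closer in the other 6 pairs, of which only the Psmb5 pair has overlapping groups.

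Genes that assemble, regulate or feed the proteasome were read from a list made by role. The array held 37 probe sets of 25 of these genes, 29 were tested, and 2 rose, 1 fell and 26 did not pass (10.3% passing, against 10.0% of all tested probe sets), with a median log2 change of -0.02. Ubqln2, a shuttle that carries ubiquitinated proteins to the proteasome, read 518.3 and 656.1 in the transgenic pools and 329.5 and 379.6 in the control pools and rose 1.65-fold (log2 change 0.72 ± 0.17, adjusted p = 0.0242, range 0.00589 to 0.263 over 13 alternative settings). Without transgenic replicate 2 its adjusted p was 0.162. Its relative Ubqln1 had log2 changes of -0.55 ± 0.19 at 95601_at and -0.01 ± 0.12 at 99575_at, and neither passed.

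The regulators of proteasome genes gave the other calls, and in both cases a second probe set of the gene did not pass. Nfe2l1 at 101757_at read 267.1 and 282.8 in the transgenic pools and 400.4 and 473.4 in the control pools and fell by 0.66 ± 0.16 on the log2 scale (adjusted p = 0.0286, range 0.014 to 0.189 over 13 settings). It did not pass without control replicate 2 (0.153), transgenic replicate 1 (0.12) or transgenic replicate 2 (0.104). At 160535_at Nfe2l1 read 1976.3 and 1658.3 in the transgenic pools and 1571.1 and 1618.4 in the control pools (log2 change 0.18 ± 0.13). The changes at these 2 probe sets differed by -0.85 ± 0.22 (101757_at minus 160535_at, adjusted p = 0.0332, passing in 8 of 13 settings with a range of 0.0102 to 0.2).

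Mafg, a small Maf partner of Nfe2l1, rose 3.89-fold at 96147_at, reading 214.5 and 237.7 in the transgenic pools and 59.6 and 56.6 in the control pools (log2 change 1.96 ± 0.22, adjusted p = 0.000304). This call was lost without the filter on dim probe sets (limma adjusted p = 0.085). With the filter at the 60th percentile the probe set was not tested. At 93406_at Mafg read 111 and 142.3 in the transgenic pools and 107 and 57.7 in the control pools (log2 change 0.68 ± 0.32, adjusted p = 0.23), and the difference between the 2 probe sets was -1.28 ± 0.37 (93406_at minus 96147_at, adjusted p = 0.0515). That difference passed in 5 of 12 alternative settings, with adjusted p-values of 0.00446 to 0.281, the lowest without control replicate 2, while without control replicate 1 the adjusted p was 0.226. The related factors Nfe2l2 and Mafk had log2 changes of -0.11 ± 0.21 and -0.02 ± 0.20.

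The assembly chaperones of the core, Pomp and Psmg1 to Psmg4, did not pass at any of 6 probe sets in limma, with a median log2 change of -0.08 and 1 unadjusted p under 0.05, that of Psmg3. Its log2 change was -0.97 ± 0.33 at 94543_at and -0.02 ± 0.20 at 162356_r_at, and the difference between them did not pass (adjusted p = 0.212). Antigen processing genes, which act with the immunoproteasome, did not pass in limma at any of 6 tested probe sets, from 4 genes. None had an unadjusted p under 0.05. Of the 6, several of them from Tapbp, 5 had log2 changes below 0 (median -0.26). Only that of Tapbp at 162104_f_at lay above 0, as did 45.8% of all tested probe sets. B2m had -0.36 ± 0.19, and Tap1, a peptide transporter subunit, had -0.21 ± 0.35. Ifng read at most 7.3 on any array. Ufd1, a cofactor of the p97 segregase, came close at -0.57 ± 0.16 (adjusted p = 0.0532), while the segregase Vcp itself had 0.08 ± 0.11. Ecpas, a scaffold on the proteasome, had 0.45 ± 0.18 (adjusted p = 0.159).

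**Figure D5:**
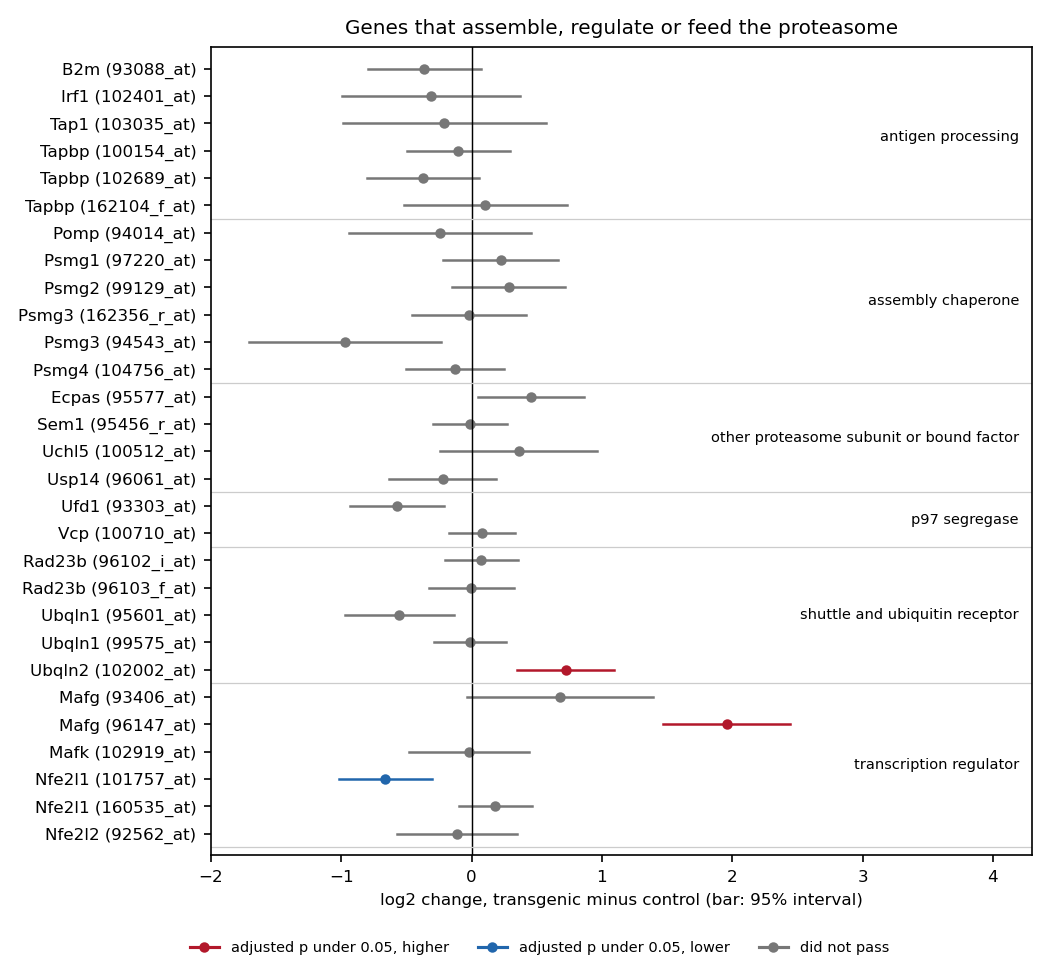
Log2 change (transgenic minus control, x axis) with 95% intervals from limma for the 29 tested probe sets of genes that assemble, regulate or feed the proteasome (rows, by role). Mafg at 96147_at (1.96) and Ubqln2 (0.72) lie to the right and Nfe2l1 at 101757_at (-0.66) to the left, while the second probe sets of Mafg and Nfe2l1 did not pass.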

How the data were processed

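Prefrontal cortex RNA of 2 transgenic and 2 control pools was measured on single-channel arrays, and groups come from the sample titles. The deposited table holds an intensity per probe set on a linear scale, a unit read from the values. The trimmed mean of each column is close to 250 (249.5 to 249.6), so arrays had been scaled before deposit. No label or header names the software. Gene symbols come from the platform annotation. After 66 control probe sets were left out, values were floored at the 25th percentile (19.675) and log2-transformed, and probe sets with a mean log2 value above the 40th percentile (an intensity of 49.4) were compared by limma 3.58.1 under R 4.3.3 (intensity trend, two-sided, Benjamini-Hochberg adjustment over all tested probe sets). Errors are SEs of that fit (2 residual degrees of freedom plus 7.51 shared) or SDs over 2 pools, and the number of arrays limits precision. The same model tested within-array differences between probe sets of a gene, with the trend on their mean level. Both were run on simulated data to which no floor or filter was applied, so that run does not cover either step. A fold is a ratio of geometric means of floored values. Detection calls were not used.

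Named with pool values were members that passed, members of genes with several probe sets, the immunoproteasome and activators, and partner genes that passed; other members and partners given with values were chosen after their values were seen. The members and lists were chosen with earlier results of these data known. Alternatives were other floors, filters, scalings, priors, the replicate number as a block and leaving out each array. Positions belong to the printed promoters, not to probes.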

Additional observations from a re-analysis of the deposited data

How the results depend on the processing

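Each result was recomputed under 13 alternatives. The number of proteasome probe sets that passed, 3, was between 2 and 4 in 12 of them and 1 without the filter on dim probe sets, where 12422 probe sets were tested. The balance of all calls shifted with the filter at the 60th percentile (300 higher and 347 lower), without the filter (34 and 14) and without the intensity trend (272 and 123). All tested probe sets gave 48 calls without the filter, 395 without the intensity trend and between 389 and 745 with 1 array left out, against 747. Partner genes gave 0 limma calls without the filter (6 of 37 probe sets at an unadjusted p under 0.05), 1 without the intensity trend and 2 to 5 with 1 array left out, against 3. With the filter at the 60th percentile 0 of 6 same-gene pairs passed in limma (3 at an unadjusted p under 0.05), since 160305_at of Psmd11 was no longer tested, and without the filter 1 passed. The median log2 change of the members, 0.05, lay between 0.0147 and 0.122 with 1 array left out. At an adjusted p of 0.05 Psmc5 was lost without the filter (0.147), without the intensity trend (0.109) and in 3 of the 4 fits without 1 array, Psmd11 at 160305_at (0.0592) and Psmd5 (0.2) only without the filter. Psma4 passed with the pseudocount of 16 (0.0495), the 60th percentile filter (0.0452), median scaling (0.0477) and the replicate block (0.0442), and Psmb6 without control replicate 1. Of 568 recomputed log2 changes 27 changed sign, none of them called. Median scaling turned Psme3 to -0.002 and Psme3ip1 to -0.0034, and quantile normalization turned Psmd1 to -0.003, Psmd8 to -0.0062, Psme3 to -0.0034 and Psme3ip1 to -0.0157. With 1 array left out, log2 changes ranged from -0.0938 to 0.1251 for Psmd8, -0.0852 to 0.0442 for Psma1, -0.1624 to 0.2445 for Psma5, -0.1166 to 0.0129 for Psmb1 (160875_at), -0.0113 to 0.4717 for Psmb5 (160559_at), -0.1176 to 0.1539 for Psmd1, -0.0048 to 0.3859 for Psmd11 (160304_r_at), -0.1463 to 0.2951 for Psmd10, -0.2961 to 0.2352 for Psme4, -0.0305 to 0.051 for Psme3ip1, -0.1785 to 0.015 for Psmc3 (93734_i_at), -0.1305 to 0.1537 for Psme3, -0.0428 to 0.1255 for Psma2, -0.0498 to 0.2085 for Psmb5 (101558_s_at) and -0.0512 to 0.373 for Psmc6. With the replicate block, 892 probe sets passed in all and 4 members. The sample titles give the pools a number and do not say whether same-numbered pools were handled together. Deviations of same-numbered pools correlated at r = 0.056 over 7453 probe sets. This does not settle whether they were paired, since each group gives only 1 independent deviation per probe set. Where no cause is named for a change under an alternative, the cause was not tested.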
